A study of Mus musculus with 18 samples.

Results

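The 10 genes described here are the 4 DNA-binding factors of WNT signaling (Tcf7, Lef1, Tcf7l1 and Tcf7l2), 5 genes that WNT signaling switches on in many tissues and that restrain it (Axin2, Nkd1, Nkd2, Znrf3 and Rnf43), and Ctnnb1, the gene of beta-catenin. They were chosen by name from the 56691 genes of the deposited table, and each had 1 row there. This choice, and that of the lists of other genes below, was made with earlier results of these data known. Mouse bone marrow stromal cells (BMSCs) of the wt genotype were kept for 4 days in culture medium (CM), osteogenic induction medium (OI) or adipogenic induction medium (AI). Each medium was used without FGF9 (0 ng/ml; CM, OI and AI) and with 20 ng/ml of the recombinant protein (CM_F9, OI_F9 and AI_F9), which gave 6 groups of 3 samples. OI is alpha-MEM with serum, ascorbate-2-phosphate, beta-glycerol phosphate and dexamethasone. AI is alpha-MEM with serum, more dexamethasone, rosiglitazone, IBMX and insulin, but without ascorbate-2-phosphate and beta-glycerol phosphate. CM is a commercial medium, so base medium and additions cannot be told apart where OI or AI is compared with CM. The labels name bone marrow as the tissue, while the methods describe cells isolated from compact bone and passaged, so they are cultured cells and not a fresh marrow sample. The labels do not say whether the 3 samples of a group came from separate mice or cultures, so the p values measure only the spread between these samples.

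In canonical WNT signaling, a WNT ligand at the cell surface stops a cytoplasmic destruction complex from degrading beta-catenin, which then enters the nucleus and binds the TCF/LEF factors on DNA. Without beta-catenin these factors recruit co-repressors. TCF7L1 is known mostly as a repressor, LEF1 mostly as an activator, and TCF7 and TCF7L2 act either way. AXIN2 is a scaffold of the destruction complex, NKD1 and NKD2 bind Dishevelled, and ZNRF3 and RNF43 are membrane ubiquitin ligases that remove Frizzled receptors. In stromal cells WNT signaling is known to favor osteoblasts over adipocytes.

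Levels are given as FPKM, which is the read count of a gene divided by its length and by the library total, so that genes can be compared with each other. Fold changes come from edgeR on the read counts, after scaling for library composition, and are given as log2 fold changes ± SE with Benjamini-Hochberg adjusted p values over all 17631 genes tested. Genes with an adjusted p up to 0.05 whose log2 fold change reached 1 in either direction were called DEGs. The libraries held 16719561 to 20526502 counted reads (median 18813494). Of the 10 genes, 9 passed the filter on low counts and Rnf43, with 0 to 9 reads per library, did not. No pair of samples was a duplicate of another. The factors of that scaling lay between 1.05 and 1.06 for AI and between 0.906 and 0.928 for AI_F9, and FPKM does not contain them. For that reason a comparison of AI_F9 with AI is lower by FPKM than by the fitted fold change. In bulk RNA, fewer cells of a type and less RNA per cell cannot be told apart.

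FGF9 moved these genes in opposite directions within a sample and between media. In CM it raised Tcf7, Lef1 and Axin2 and lowered Nkd1, so 4 of the 9 tested genes were DEGs, beside 10.7% of all genes tested (5.5% higher and 5.16% lower). In OI it raised the same 3 genes and lowered Nkd1 and Nkd2, 5 of 9 beside 11.5% (5.48% and 6.07%). In AI it raised none and lowered Axin2, Nkd1 and Nkd2, 3 of 9 beside 16% (6.66% and 9.32%). By the adjusted p alone, 7 of the 9 passed in CM (37.3% of all genes), 8 in OI (39.9%) and 5 in AI (50.6%). The middle value of their 9 log2 fold changes was -0.18 in CM, -0.27 in OI and -0.42 in AI, beside 0.02, 0.01 and 0.05 over all genes tested. The 3 FGF9 comparisons use separate samples. Where samples below are said to lie apart or not to overlap, this describes the FPKM of that gene. The share of all genes that did so is not given here.

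**Figure D1:**
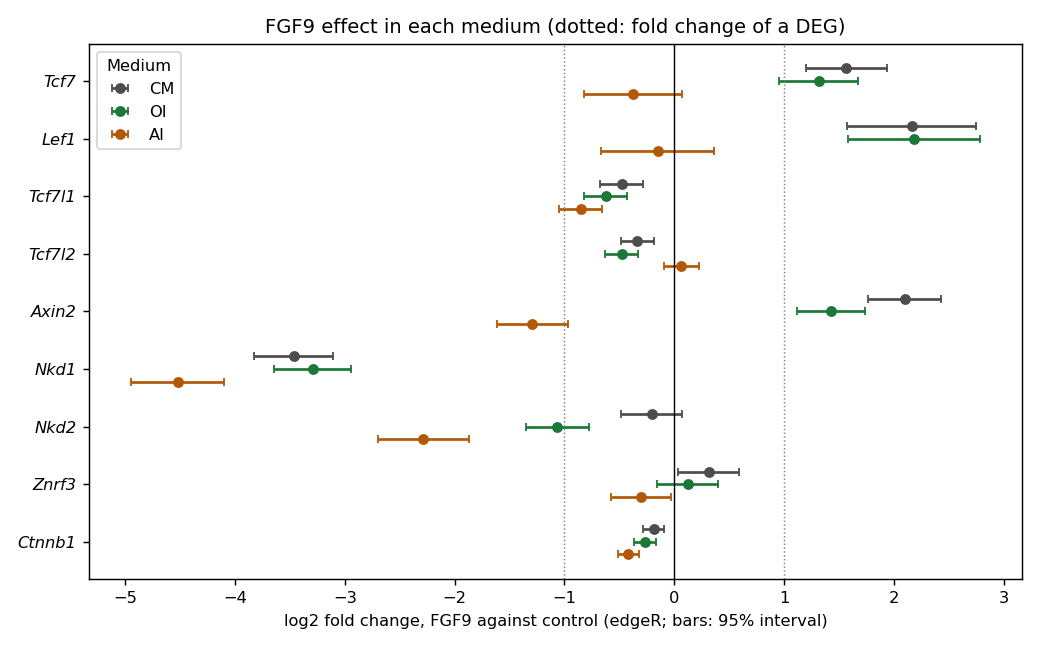
Log2 fold change of FGF9 against control (horizontal axis, edgeR, points with 95% intervals) for the 9 tested genes in CM, OI and AI, with dotted lines at the fold change of a DEG. Axin2 stood at 2.10 in CM, 1.43 in OI and -1.29 in AI, whereas Nkd1 lay between -3.29 and -4.52 in the 3 media.

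Tcf7 (ENSMUSG00000000782, GRCm39 chromosome 11, 52143198 to 52174158, minus strand) encodes TCF1, best known in T cells. It was at 1.04, 0.75 and 1.36 FPKM in CM and at 3.61, 3.47 and 2.67 in CM_F9. It was at 1.49, 1.38 and 1.07 in OI and at 3.08, 3.61 and 3.47 in OI_F9. Every FGF9 sample lay above every control sample in both media. The log2 fold change was 1.57 ± 0.18 in CM (edgeR, adjusted p = 1.53e-07) and 1.32 ± 0.17 in OI (adjusted p = 1.52e-06). In AI the 3 samples were at 1.09, 1.00 and 0.84 FPKM and those of AI_F9 at 0.56, 0.65 and 0.74. These groups did not overlap by FPKM, but the fitted change of -0.38 ± 0.21 did not pass (edgeR, adjusted p = 0.152, 95% interval -0.82 to 0.07). On library totals alone it was -0.58 (adjusted p = 0.03), still under the fold change of a DEG. In order of level OI_F9 and CM_F9 came first and overlapped, followed by OI, CM and AI, each overlapping with the next, and AI_F9 was lowest without overlap.

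Lef1 (ENSMUSG00000027985, chromosome 3, 130904120 to 131018005, plus strand) had the lowest FPKM of the 4 factors. It held 0.08, 0.15 and 0.19 FPKM in CM and 0.77, 0.64 and 0.58 in CM_F9, and 0.13, 0.21 and 0.07 in OI against 0.62, 0.48 and 0.79 in OI_F9. The control samples of CM and OI rested on only 11 to 35 reads each. FGF9 raised it by 2.16 ± 0.28 in CM (edgeR, adjusted p = 1.43e-06) and by 2.18 ± 0.29 in OI (adjusted p = 1.71e-06), without overlap of the samples. AI differed from the other controls before FGF9 was added. Its 3 samples were at 0.50, 0.61 and 0.54 FPKM, above all samples of CM and OI, and AI_F9 was at 0.48, 0.39 and 0.43. The FGF9 change in AI was -0.15 ± 0.25 (adjusted p = 0.647), with an interval of -0.67 to 0.36. With limma on log2 of FPKM plus 0.5, which compresses such low values, the change of Lef1 was 0.86 in CM and 0.82 in OI, both under the fold change of a DEG.

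RefSeq gives Lef1 4 promoter windows of 250 bases before an annotated start in GRCm38.p6, and 1 of them, at an internal start, holds letters that TCF/LEF factors recognize. It is shown with the match in capitals, because gene counts add up the transcripts from all starts and a LEF1 made from an internal start lacks the part that binds beta-catenin. The window is chr3:131156044-131156293, plus strand.
Lef1, internal start: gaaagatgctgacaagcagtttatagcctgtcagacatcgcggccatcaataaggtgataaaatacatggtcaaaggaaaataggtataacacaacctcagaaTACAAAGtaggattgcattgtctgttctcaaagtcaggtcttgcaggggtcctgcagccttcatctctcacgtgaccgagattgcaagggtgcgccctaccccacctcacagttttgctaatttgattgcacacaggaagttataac
The search covered both strands for ATCAAAG (found in 3.21% of windows), for TTCAAAG (4.46%), for AACAAAG (5.03%) and for TACAAAG (3.2%). The match TACAAAG begins 147 bases before the start. Of the 10 genes, 9 had promoter entries with 16 windows, and 2 windows held a match, the other lying before an internal start of Tcf7l2 (CTTTGTT, the reverse complement of AACAAAG, 14 bases before it). Any of the 4 motifs occurred in 14.8% of all 32851 windows of that length in the table. A match is a description and not a site of binding, and no match says only that these letters are not in the window.

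Tcf7l1 (ENSMUSG00000055799, chromosome 6, 72603361 to 72766237, minus strand), which encodes TCF3, had the highest FPKM of the factors in every group. This rank rests on the length that FPKM divides by, 3924 bases for Tcf7l1 and 8894 for Tcf7l2. By summed reads Tcf7l2 was above Tcf7l1 in every group but AI, with 2664 against 2047 in CM and 1685 against 2239 in AI. The level of Tcf7l1 was 9.35, 8.49 and 8.55 FPKM in CM against 7.05, 6.46 and 6.26 in CM_F9, and 9.78, 9.68 and 9.58 in OI against 7.09, 5.67 and 6.70 in OI_F9. It was 9.49, 11.3 and 9.74 in AI against 5.23, 5.31 and 4.08 in AI_F9. The FGF9 samples lay below the controls in all 3 media. The changes of -0.48 ± 0.09 (CM), -0.63 ± 0.09 (OI) and -0.85 ± 0.10 (AI) all passed the adjusted p (edgeR, 0.000287, 1.02e-05 and 8.80e-08), and none reached the fold change of a DEG. With library totals the change of Tcf7l1 in AI was -1.06, which made it a DEG.

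Tcf7l2 (ENSMUSG00000024985, chromosome 19, 55730252 to 55922086, plus strand), which encodes TCF4, also fell with FGF9 in CM and OI. The samples held 5.02, 5.07 and 5.06 FPKM in CM and 4.02, 4.34 and 4.14 in CM_F9, and 4.67, 5.02 and 4.32 in OI and 3.80, 3.39 and 3.20 in OI_F9. The changes were -0.34 ± 0.07 and -0.48 ± 0.07 (edgeR, adjusted p = 0.000626 and 1.26e-05). In AI the level was already lower, at 3.26, 3.38 and 3.47 FPKM, and in AI_F9 it was 3.21, 3.07 and 2.89. The fitted change there was 0.07 ± 0.08 (adjusted p = 0.493, interval -0.09 to 0.22), and on library totals it was -0.14, so its direction depends on the scaling.

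The summed FPKM of the 4 factors changed little in CM and OI while their make-up shifted. As mean ± SD of 3 samples, the sum was 15.0 ± 0.526 FPKM in CM and 14.7 ± 0.924 in CM_F9, and 15.8 ± 0.667 in OI and 14.0 ± 0.739 in OI_F9. Tcf7 and Lef1 together made up 7.89 ± 2.08% of it in CM and 26.6 ± 2.43% in CM_F9, and 9.14 ± 1.36% in OI and 28.8 ± 3.06% in OI_F9. The ranges did not overlap, the highest control share being 10.2% and the lowest FGF9 share 23.8% over both media. In AI the sum fell from 15.1 ± 1.05 to 9.01 ± 0.757 FPKM, and the share of Tcf7 and Lef1 was 10.1 ± 0.843% without and 12.1 ± 1.94% with FGF9, with overlapping samples. The share of Tcf7l1 was lower with FGF9 in each medium, at 44.9%, 46.3% and 53.9% against 58.5%, 61.3% and 67.4% in CM, OI and AI. That of Tcf7l2 was 28.5% and 24.8% with FGF9 against 33.6% and 29.5% in CM and OI, but 34.0% against 22.4% in AI. The shares depend on the gene lengths that FPKM divides by, 3019 bases for Tcf7, 8788 for Lef1, 3924 for Tcf7l1 and 8894 for Tcf7l2. No test of these shares was run. The smallest two-sided p of an exact permutation test of 3 against 3 is 0.1.

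**Figure D2:**
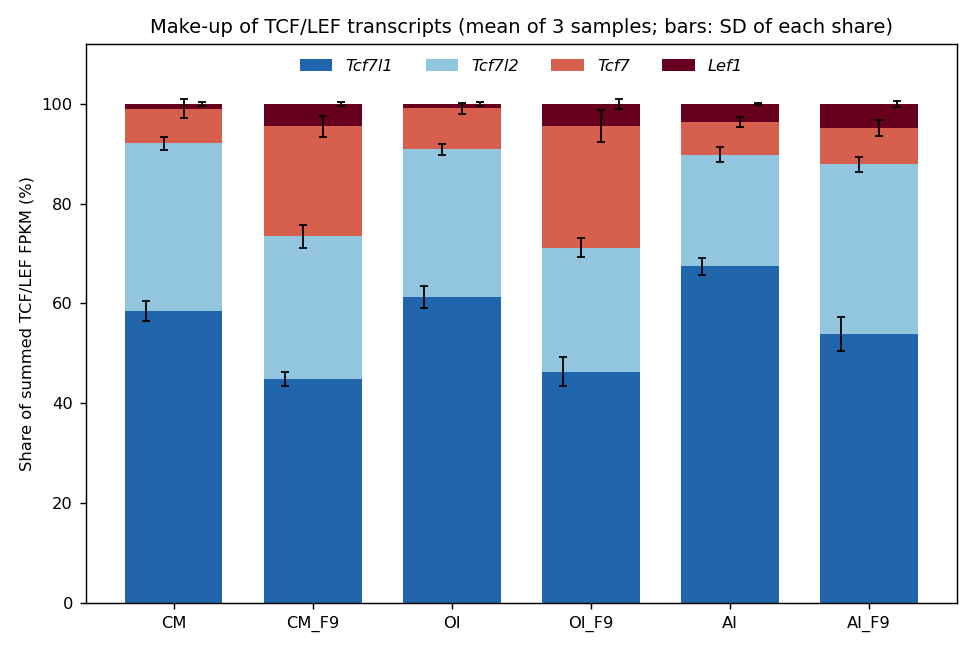
Mean share of each factor in the summed TCF/LEF FPKM (vertical axis, %) in the 6 groups, with SD bars at the top of each segment (n = 3). Tcf7 and Lef1 took 26.6% in CM_F9 and 28.8% in OI_F9, and 7.89% to 12.1% in the other groups.

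Ctnnb1 (ENSMUSG00000006932, chromosome 9, 120758282 to 120789573, plus strand) was expressed far above the other 9 genes. Its samples held 122, 124 and 127 FPKM in CM and 116, 114 and 113 in CM_F9, and 142, 141 and 147 in OI and 119, 126 and 125 in OI_F9. They held 150, 152 and 155 in AI and 97.2, 98.9 and 100.4 in AI_F9. Without exception the FGF9 samples of a medium lay below its controls. The falls were small and passed the adjusted p alone, with log2 fold changes of -0.18 ± 0.05 (CM), -0.27 ± 0.05 (OI) and -0.42 ± 0.05 (AI) (edgeR, adjusted p = 0.0027, 5.77e-05 and 6.34e-08). Beta-catenin is regulated mainly by degradation of the protein, on which these RNA levels carry no information.

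Axin2 (ENSMUSG00000000142, chromosome 11, 108811175 to 108841609, plus strand) is the most widely used transcriptional readout of WNT signaling. FGF9 raised it where it was low and lowered it where it was high. It stood at 0.35, 0.60 and 0.63 FPKM in CM and at 2.2, 2.65 and 2.22 in CM_F9. In OI it stood at 0.97, 0.97 and 0.85 and in OI_F9 at 2.68, 2.77 and 2.34. All FGF9 samples were above all controls here, with changes of 2.10 ± 0.16 in CM (edgeR, adjusted p = 1.83e-10) and 1.43 ± 0.15 in OI (adjusted p = 3.68e-08). In AI it stood at 2.04, 1.73 and 1.78 and in AI_F9 at 0.65, 0.68 and 0.63, a change of -1.29 ± 0.16 (adjusted p = 3.04e-07). OI_F9 and CM_F9 were thus highest and overlapped, AI and then OI followed without overlap, and AI_F9 and CM overlapped at the bottom.

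Nkd1 (ENSMUSG00000031661, chromosome 8, 89247982 to 89321512, plus strand) is likewise a feedback inhibitor that WNT signaling induces, and it went the other way from Axin2 in CM and OI. The controls were alike in the 3 media, with 3.98, 3.66 and 3.90 FPKM in CM, 3.60, 3.96 and 3.84 in OI and 3.73, 3.37 and 3.87 in AI. With FGF9 it was at 0.34, 0.39 and 0.35 in CM_F9, 0.53, 0.39 and 0.28 in OI_F9 and 0.13, 0.20 and 0.07 in AI_F9. Each FGF9 sample was below every control sample of any medium. The log2 fold changes were -3.47 ± 0.17 in CM, -3.29 ± 0.17 in OI and -4.52 ± 0.20 in AI (edgeR, adjusted p = 7.09e-14, 1.37e-13 and 8.78e-15), which are falls of 11.1-fold, 9.80-fold and 23.0-fold. By size they ranked 199, 252 and 89 among the 17631 genes tested. In AI_F9 only 6 to 18 reads per library remained, so the size of that change is the least certain of the 3.

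The ratio of Axin2 to Nkd1 in FPKM was 0.138 ± 0.0432 in CM, 0.245 ± 0.024 in OI and 0.507 ± 0.0439 in AI. With FGF9 it was 6.54 ± 0.233 in CM_F9, 6.84 ± 1.67 in OI_F9 and 5.80 ± 2.88 in AI_F9. The lowest FGF9 sample had 3.40 and the highest control sample 0.547, so the ratio separated all 9 FGF9 samples from all 9 controls, including AI, where both genes fell. Nkd1 alone already separated them, with 0.07 to 0.53 FPKM with FGF9 and 3.37 to 3.98 without. The separation by the ratio therefore adds nothing about Axin2. To show the regions before the starts of these genes that moved apart, their RefSeq windows in GRCm38.p6 follow, neither of which holds one of the 4 motifs. They are chr11:108920099-108920348 for Axin2 and chr8:88527383-88527632 for Nkd1, both on the plus strand.
Axin2: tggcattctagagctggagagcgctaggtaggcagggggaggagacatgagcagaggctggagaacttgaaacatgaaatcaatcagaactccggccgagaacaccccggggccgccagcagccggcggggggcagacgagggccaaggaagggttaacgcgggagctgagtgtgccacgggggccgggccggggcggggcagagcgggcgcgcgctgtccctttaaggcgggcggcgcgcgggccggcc
Nkd1: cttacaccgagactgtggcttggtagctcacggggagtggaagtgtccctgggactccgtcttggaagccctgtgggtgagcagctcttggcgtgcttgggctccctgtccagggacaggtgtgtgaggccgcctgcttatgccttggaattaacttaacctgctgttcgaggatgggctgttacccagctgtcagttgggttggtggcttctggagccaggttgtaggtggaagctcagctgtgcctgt
The GC content was 69.2% in the Axin2 window and 58.4% in that of Nkd1. The coordinates are of another build than those of the deposited table and the positions given above.

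**Figure D3:**
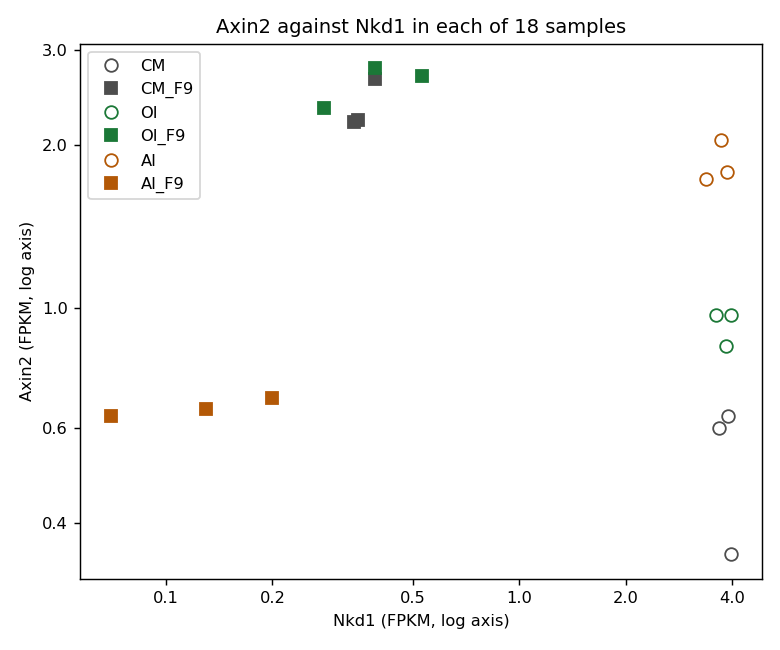
Axin2 against Nkd1 in each of the 18 samples (FPKM, both axes on a log scale, open for control and filled for FGF9). The FGF9 samples sit at 0.07 to 0.53 FPKM of Nkd1 and the controls at 3.37 to 3.98, while Axin2 runs from 0.35 to 2.77 and its order between control and FGF9 turns over in AI.

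Nkd2 (ENSMUSG00000021567, chromosome 13, 73966653 to 73995750, minus strand), the paralog of Nkd1, was lowered by FGF9 in OI and more so in AI. It was at 3.10, 3.37 and 4.34 FPKM in CM and 3.62, 2.97 and 3.20 in CM_F9, which overlapped, with a change of -0.21 ± 0.13 (edgeR, adjusted p = 0.251, interval -0.49 to 0.07). It was at 4.18, 3.87 and 4.60 in OI and 2.03, 2.19 and 2.05 in OI_F9, a change of -1.06 ± 0.14 (adjusted p = 1.30e-06) that lies close to the fold change of a DEG. It was at 1.17, 1.62 and 1.89 in AI and 0.24, 0.29 and 0.29 in AI_F9, a change of -2.29 ± 0.20 (adjusted p = 1.25e-09). The AI_F9 samples had the lowest Nkd2 of all groups, as they had of Nkd1. With limma on log2 of FPKM plus 0.5 or 0.1 the change of Nkd2 in OI was -0.86 or -0.98, no longer that of a DEG.

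Znrf3 (ENSMUSG00000041961, chromosome 11, 5226324 to 5394847, minus strand) varied least of the feedback genes. It was at 1.66 FPKM in all 3 CM samples and at 1.87, 2.28 and 2.32 in CM_F9, at 1.77, 1.80 and 1.57 in OI against 1.96, 2.27 and 1.56 in OI_F9, then 2.21, 2.59 and 1.79 in AI against 1.49, 1.69 and 1.44 in AI_F9. No FGF9 change passed, with 0.31 ± 0.13 in CM (edgeR, adjusted p = 0.0691), 0.12 ± 0.13 in OI (0.512) and -0.30 ± 0.13 in AI (0.0644). The intervals of 0.04 to 0.59, -0.16 to 0.40 and -0.58 to -0.03 leave room for modest changes. The FGF9 samples lay above all controls in CM and below all controls in AI, and overlapped with them in OI. Placed in order of mean level, each of the 6 groups overlapped with the next.

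Rnf43 (ENSMUSG00000034177, chromosome 11, 87553548 to 87626365, plus strand), the partner of Znrf3 in the same task, was near the limit of detection. Its summed reads over 3 libraries were 12 in CM and 14 in CM_F9, 17 in OI against 12 in OI_F9, then 9 in AI against 1 in AI_F9. Per library total the AI counts were 9.25 times those of AI_F9, with an exact 95% interval of 1.28 to 405 that covers counting error only. Fits that kept Rnf43 did not call this difference (adjusted p = 0.103 with DESeq2 and 0.129 with edgeR without a filter on low counts). The ratios of control to FGF9 were 0.788 (0.333 to 1.84) in CM and 1.42 (0.639 to 3.26) in OI, so a change there was not detectable at this depth.

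**Figure D4:**
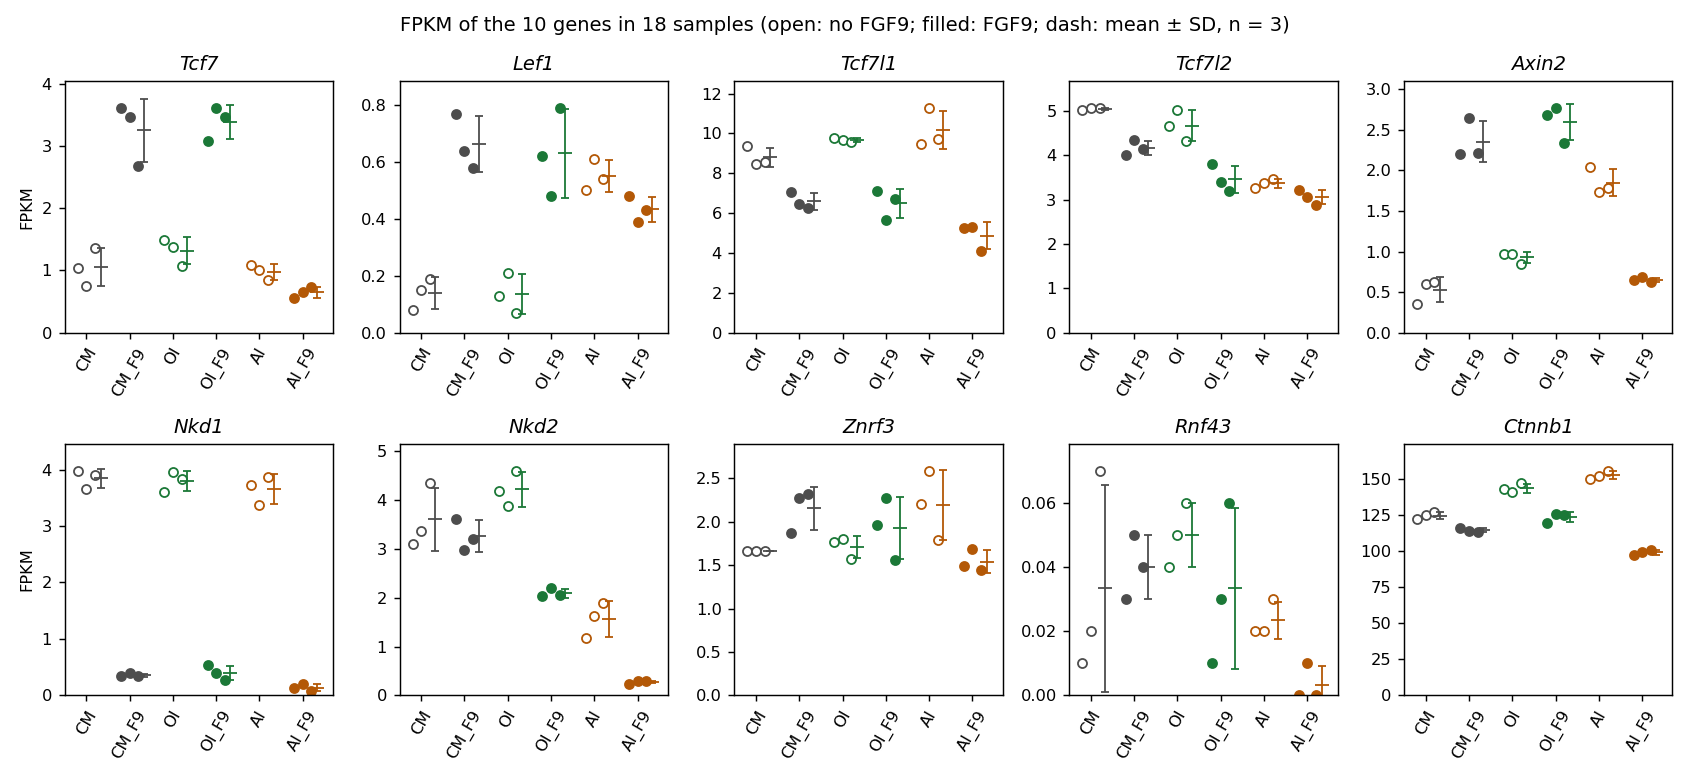
FPKM of each of the 10 genes in the 18 samples (vertical axis, its own scale per gene), with open points for controls, filled points for FGF9, and the mean ± SD beside them (n = 3). Filled points lie above open ones in CM and OI for Tcf7, Lef1 and Axin2 and below them in all 3 media for Nkd1, Tcf7l1 and Ctnnb1.

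Some of these levels differed between the media without FGF9. The counts of DEGs lay near the shares of all genes given beside them, so they are no trait of these genes as a set. Between OI and CM none of the 9 genes was a DEG with edgeR, DESeq2 or limma, beside 5.48% of all genes, and 2 passed an unadjusted p under 0.05. These were Axin2, which was higher in OI by 0.80 ± 0.17 (edgeR, adjusted p = 0.00133), and Ctnnb1, higher by 0.18 ± 0.05 (adjusted p = 0.00536). Between AI and CM 3 of 9 were DEGs, beside 22.2%. Lef1 was higher in AI by 1.85 ± 0.29 (edgeR, adjusted p = 7.36e-06) and Axin2 by 1.70 ± 0.16 (adjusted p = 4.17e-09), while Nkd2 was lower, with -1.32 ± 0.14 (adjusted p = 3.86e-08). Tcf7l2 differed by -0.69 ± 0.07 and Ctnnb1 by 0.18 ± 0.05 with an adjusted p under the threshold, and Nkd1 by -0.18 ± 0.13 without. Between AI and OI 2 of 9 were DEGs, beside 21.9%, Lef1 with 1.95 ± 0.29 and Nkd2 with -1.52 ± 0.14. AI without FGF9 therefore shared the higher Lef1 and Axin2 with CM_F9 and OI_F9, but not their higher Tcf7 or lower Nkd1. The limma fit on log2 of FPKM plus 0.5 called only 1 gene in each of these AI comparisons, Axin2 against CM and Nkd2 against OI.

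With FGF9 present, OI_F9 and CM_F9 differed in none of the 9 as a DEG with edgeR, DESeq2 or limma, beside 4.28% of all genes, and in 3 at an unadjusted p under 0.05. Of these, Nkd2 (-0.65 ± 0.14) and Tcf7l2 (-0.28 ± 0.07) passed the adjusted p (edgeR, 0.00167 and 0.00943). Ctnnb1, with 0.10 ± 0.05, did not (adjusted p = 0.133). AI_F9 was lower than CM_F9 in 4 of 9 genes, beside 32.8%, and lower than OI_F9 in the same 4, beside 31.4%. These were Nkd2 (-3.40 ± 0.19 against CM_F9 and -2.75 ± 0.19 against OI_F9), Tcf7 (-2.17 ± 0.19 and -2.21 ± 0.19), Axin2 (-1.69 ± 0.16 and -1.82 ± 0.15) and Nkd1 (-1.24 ± 0.28 and -1.37 ± 0.27). Lef1 did not pass in either, with -0.46 ± 0.25 and -0.38 ± 0.25. Without AI_F9 replicate 3, whose 6 reads of Nkd1 were the fewest, the Nkd1 difference from CM_F9 was -0.96 and no longer that of a DEG. With limma on log2 of FPKM plus 0.5, both Nkd1 differences lost their call, at -0.45 and -0.50. DESeq2 or edgeR without a filter on low counts also called Rnf43 lower in AI_F9 in both comparisons, on the single read named above.

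The difference of the FGF9 effect between media was tested as an interaction. The 3 such comparisons are not independent, since any 2 of them share the samples of 1 medium. By the adjusted p alone 1, 9 and 6 of the 9 genes passed for OI minus CM, AI minus CM and AI minus OI, beside 5.48%, 39.9% and 40% of all genes. Between OI and CM none of the 9 genes differed as a DEG with edgeR, DESeq2 or limma, beside 1.63% of all genes, and 2 passed an unadjusted p under 0.05. Nkd2 fell more in OI (-0.86 ± 0.19, edgeR, adjusted p = 0.00706), and Axin2, with -0.67 ± 0.22, did not pass (adjusted p = 0.0876). Between AI and CM 5 of 9 passed as DEGs, beside 14.1%, and between AI and OI the same 5, beside 14%. Axin2 had the largest of these differences, -3.39 ± 0.22 against CM and -2.72 ± 0.22 against OI (edgeR, adjusted p = 2.55e-11 and 6.17e-10). Those of Lef1 were -2.31 ± 0.38 and -2.33 ± 0.39, of Tcf7 -1.95 ± 0.28 and -1.69 ± 0.28, of Nkd2 -2.08 ± 0.24 and -1.22 ± 0.25, and of Nkd1 -1.06 ± 0.31 and -1.23 ± 0.30. Only for Axin2 was the FGF9 change a DEG of opposite sign in AI and in the other media. The Nkd1 differences were -0.78 and -0.95 without AI_F9 replicate 3, both then under the fold change of a DEG, and -0.99 against OI without OI_F9 replicate 1. With limma on log2 of FPKM plus 0.5, Nkd1 was at -0.38 against CM and -0.45 against OI, and in the latter comparison Nkd2 (-0.54) and Lef1 (-0.99) lost their calls too. With 0.1 added, Nkd1 against CM was at -0.94.

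Of the other signaling components, each list is given by its DEGs with FGF9, beside 10.7%, 11.5% and 16% of all genes in CM, OI and AI. None of the 11 genes of the destruction complex (among them Apc, Axin1 and Gsk3b) was a DEG in any medium with edgeR, DESeq2 or limma, while 5, 6 and 4 had an unadjusted p under 0.05 in CM, OI and AI (edgeR), and their median log2 fold changes were 0.02 in CM, 0.07 in OI and 0.02 in AI. Apc2, a second APC protein, had the smallest adjusted p there in CM and OI, with 0.79 ± 0.13 and 0.91 ± 0.15. Of 10 genes of co-receptors, Dishevelled proteins and their partners only Frat1, an inhibitor of GSK3, was a DEG, in OI (1.40), on 25 and 69 summed reads. The co-receptor Lrp6 lay just under that threshold in all 3 media, with -0.90 ± 0.09, -0.99 ± 0.09 and -0.98 ± 0.09 in CM, OI and AI, whereas its paralog Lrp5 had 0.31 ± 0.08, 0.45 ± 0.08 and 0.47 ± 0.08. Of 10 nuclear co-activators only Pygo1, which binds the beta-catenin complex through BCL9, was called, in AI (-1.67 ± 0.11). Of 10 nuclear co-repressors only Tle1, a Groucho protein, was called, in CM (1.72 ± 0.05) and OI (1.27 ± 0.05). Tle1 was at 3.74 ± 0.180 FPKM in CM and 12.8 ± 0.131 in CM_F9, at 5.60 ± 0.204 in OI against 13.9 ± 0.400 in OI_F9, while AI stood at 11.5 ± 0.454 and AI_F9 at 8.95 ± 0.299. Like Axin2 it was thus higher with FGF9 in CM and OI and lower in AI, there with -0.15 ± 0.05 and with an adjusted p of 0.0178 (edgeR). Of 6 tested catenins besides Ctnnb1, Ctnnd1 (p120) and Jup (plakoglobin) were lower in AI, with -1.32 ± 0.06 and -1.48 ± 0.12, Ctnnal1 was higher in OI (1.56 ± 0.07), and Ctnna2 was higher in CM and OI on 17 and 12 summed control reads.

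Of 22 other genes that serve as WNT targets in various tissues, 20 were tested (Sp5 and Mmp7 were not), and DEGs among them went both ways. In CM 5 were higher and 9 lower, in OI 3 and 8, and in AI 1 and 8, of 20 each. Over all genes tested, 5.5% were higher and 5.16% lower in CM, 5.48% and 6.07% in OI, and 6.66% and 9.32% in AI. Their median log2 fold change was -0.67, -0.53 and -0.64, and -0.85, -0.86 and -0.70 without Dkk1, beside 0.02, 0.01 and 0.05 over all genes tested. Higher in every medium was only Notum, a secreted enzyme that inactivates WNT ligands, with 0.300 ± 0.161 FPKM in CM and 4.36 ± 0.412 in CM_F9, 0.763 ± 0.0462 in OI against 13.6 ± 0.906 in OI_F9, then 4.37 ± 0.197 in AI against 14.1 ± 0.710 in AI_F9. Like Lef1 and Axin2 it stood higher in AI than in CM before FGF9 was added. Apcdd1, a membrane inhibitor of WNT ligands, had 1.82 ± 0.09 in CM and 1.29 ± 0.08 in OI, both DEGs, and 0.27 ± 0.07 in AI. Dkk1, a secreted antagonist that binds LRP5 and LRP6, had 1 read over 3 libraries in CM and 77 in CM_F9, 0 in OI and 19 in OI_F9, and none in either AI group, so no fold is given for it.

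Lower in all 3 media were Lgr5, the R-spondin receptor that marks stem cells of the gut (log2 fold changes of -3.99, -3.41 and -3.09 for CM, OI, AI), Bmp4 (-2.97, -2.42 and -3.03), Ccn4 (-2.47, -1.42 and -2.43), Ephb2 (-1.55, -1.68 and -1.84) and Sox9 (-1.57, -1.06 and -1.72). As DEGs, 5 of these targets thus shared the direction of Nkd1 in every medium, and Notum, Apcdd1 and Dkk1 that of Axin2 and Lef1 in CM and OI. Ccnd1 and Cd44 were higher in CM and OI too, in OI under the fold change of a DEG. The share of all genes called alike in those media is not given here. Ccnd1, the gene of cyclin D1, and Cd44, a surface glycoprotein, were DEGs in CM alone. Ccnd1 had 1.30 ± 0.05, 0.70 ± 0.05 and 0.73 ± 0.05 in CM, OI and AI, the last 2 past the adjusted p only, and Cd44 had 1.09 ± 0.06, 0.59 ± 0.06 and -0.11 ± 0.06, of which that in OI passed the adjusted p only. Jag1, a Notch ligand, mirrored Axin2 with -2.10, -1.33 and 0.33, the last of these under the fold change of a DEG.

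**Figure D5:**
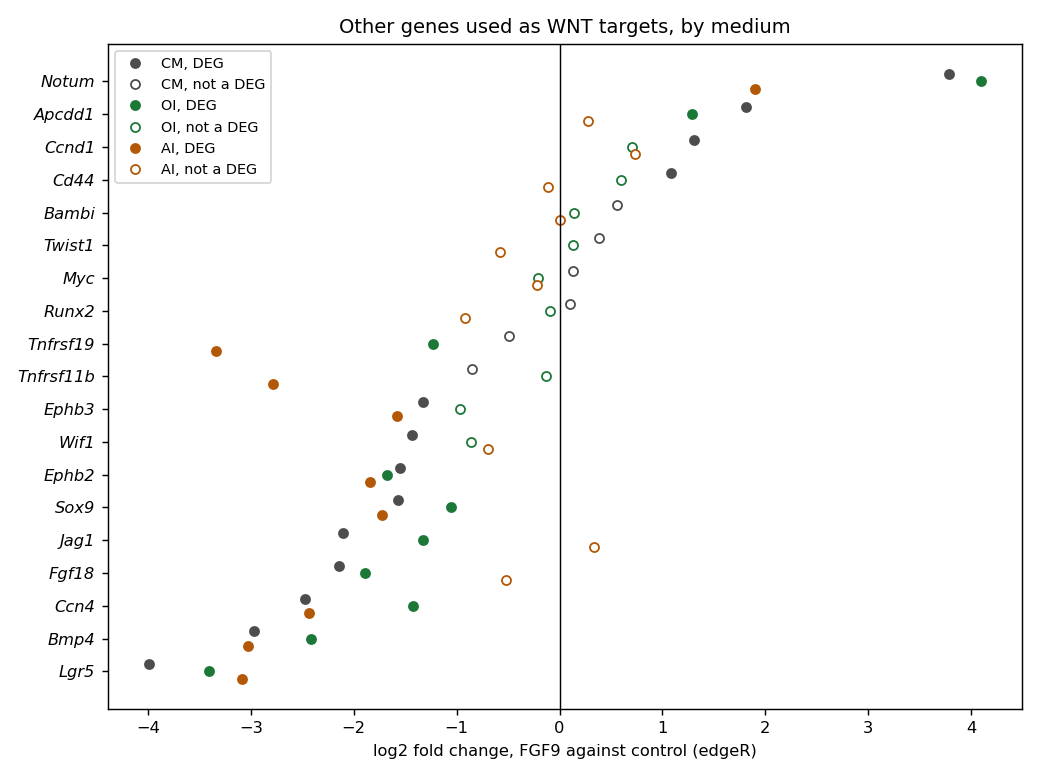
Log2 fold change of FGF9 against control (horizontal axis, edgeR) for 19 other genes used as WNT targets (Dkk1 left out for its counts of 0), filled where a DEG and open where not, by medium. Notum lies at 1.9 to 4.10 and Lgr5 at -3.09 to -3.99, at opposite ends of the list.

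Across the 18 samples, the genes most like each of these 9 by Pearson r of log2 CPM, among 14515 other genes with a mean of at least 1 CPM (the 9 themselves left out), were as follows. The points share 6 groups and their libraries, so r is a description. For Nkd1 these were Plcl1, Rtl3 and Grb10 (0.983, 0.981 and 0.980), and for Tcf7l1 Pdlim7, Rtl3 and Grb10 (0.958, 0.948 and 0.947). For Nkd2 they were Basp1, Jph2 and Lum (0.986, 0.984 and 0.984), for Ctnnb1 Samhd1, Ehd3 and Klhl33 (0.974, 0.964 and 0.959) and for Tcf7 Ninl, Mef2a and Rbbp9 (0.964, 0.963 and 0.961). Axin2 was most like Dock4, Pdgfra and Tshz1 (0.936, 0.936 and 0.934). Lef1 was most like Dvl1, the gene of a Dishevelled protein, with 0.944, Trhde with 0.924 and the WNT ligand gene Wnt7b with 0.922. Tcf7l2 was most like Hr, Nckap5 and Eef1akmt3 (0.960, 0.956 and 0.956), and Znrf3 had the weakest match, 0.825 with Phip. Among the 9 genes themselves, r was highest for Tcf7l1 and Nkd1 (0.959), followed by Nkd1 and Ctnnb1 (0.873) and Tcf7l1 and Ctnnb1 (0.861). Axin2 had 0.729 with Tcf7, 0.720 with Lef1 and -0.27 with Nkd1. The lowest were Lef1 with Tcf7l2 (-0.72) and with Nkd1 (-0.65).

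Markers of other cells moved with FGF9 too. All 8 stromal markers were detected in each group, with a summed 318 FPKM in AI_F9 to 884 in OI_F9, among them Pdgfra, the gene of CD140a. The 8 macrophage markers were detected as well, and summed to 342 to 578 FPKM over the samples of CM, 364 to 422 in CM_F9, 944 to 1142 in OI, 822 to 849 in OI_F9, 1227 to 1432 in AI and 363 to 393 in AI_F9. With FGF9, 2, 0 and 8 of these 8 were lower DEGs in CM, OI and AI, beside 5.16%, 6.07% and 9.32% of all genes. Of 7 tested endothelial markers 3, 3 and 6 were lower, with summed means of 1.69 to 12.4 FPKM, and of 5 smooth muscle markers 5, 5 and 4 were lower, which summed to 1129 to 1260 FPKM in CM, 145 to 153 in CM_F9, 939 to 1142 in OI, 58.7 to 80.1 in OI_F9, 282 to 322 in AI and 1.87 to 2.30 in AI_F9. These lists moved in AI together with the falls of Axin2, Nkd1 and Nkd2, and the smooth muscle list in each medium with the fall of Nkd1, and their part in the results was not tested. Tcf7 and Lef1 are also expressed in lymphocytes. Of the 10 lymphocyte markers 3 were tested, and the DEGs among them were in AI, where Lck was higher and Ptprc lower. Of the 10, 6 had 0 reads in CM, 5 in OI_F9 and AI, and 3 in CM_F9, OI and AI_F9, and the others were detected. The T cell receptor gene Cd3d had 0 reads in all 6 groups. Cd3e had 0 reads in CM, CM_F9, OI and OI_F9 and 1 and 2 in AI and AI_F9. Whether lymphocytes were a source of Tcf7 or Lef1 was not tested. The 10 markers had group means of 0.743 to 4.10 FPKM when summed, of which Ptprc, which macrophages express as well, held 0.367 to 3.62. The 6 adipocyte markers summed to 18.9 and 47.0 FPKM in CM and CM_F9, 49.7 and 85.9 in OI and OI_F9, then 1301 and 3178 in AI and AI_F9, and the 6 osteoblast markers to 158 and 81.1, 747 and 135, and 462 and 24.5. Of these 6, 2 were lower DEGs in CM and OI and 3 in AI, Alpl and Ibsp among them, while Bglap, which may share reads with near-identical copies, was higher in each medium. Whether the levels of the 10 genes followed these changes of cell state was not tested.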

How the data were processed

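The authors deposited, for each of 56691 genes and 18 samples, a read count and an FPKM value. Per the labels, reads were trimmed with cutadapt 1.9.1, aligned to GRCm39 with HISAT2 2.2.1 and counted with HTSeq 0.6.1 on poly(A) libraries. No source used here gives the strand setting. Deposited FPKM from 5 upwards were within 1% of count divided by gene length and library total in 100% of cases. Gene counts do not separate isoforms.

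The quasi-likelihood test of edgeR 4.0.16 (under R 4.3.3) was run on genes kept by filterByExpr, with TMM factors and a mean for each group fitted across all 18 samples, and with p values adjusted by Benjamini and Hochberg over 17631 genes. Alternatives were library totals, DESeq2 1.42.0, no filter or at least 1 CPM in 3 samples, limma 3.58.1 on log2 of FPKM plus 0.5 or 0.1, a replicate block, only the groups compared, and leaving out each sample. The steps were tested on simulated data. The 10 genes and all lists were chosen with earlier results of these data known. From each list, up to 3 genes of smallest adjusted p per medium, or each DEG where at most 5 were called, were to be named. Apcdd1, Dkk1, Ccnd1, Cd44, Lgr5, Ephb2, Sp5, Mmp7, Alpl, Ibsp, Bglap, Lck, Ptprc, Cd3d, Cd3e and Pdgfra were named outside that rule, after their values were seen. The 3 most alike genes were named by the highest r of log2 CPM (prior count 0.5). Promoter windows came from RefSeq (GRCm38.p6).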

Additional observations from a re-analysis of the deposited data

Results flagged for a closer look

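The FGF9 effect differed between media, by the interaction test of edgeR with an adjusted p of at most 0.05, in 16 of 27 comparisons of the 9 tested genes, namely 9 of 9 for AI minus CM, 6 of 9 for AI minus OI and 1 of 9 for OI minus CM. Over all genes 39.9%, 40% and 5.48% passed the same threshold. The comparisons between media share samples, so they are not separate evidence. A negative value means that FGF9 lowered the gene more, or raised it less, in the medium named first. In AI minus CM the log2 differences were -3.39 for Axin2, -2.31 for Lef1, -2.08 for Nkd2, -1.95 for Tcf7, -1.06 for Nkd1, -0.62 for Znrf3, -0.38 for Tcf7l1, -0.23 for Ctnnb1 and 0.40 for Tcf7l2. In AI minus OI they were -2.72 for Axin2, -2.33 for Lef1, -1.69 for Tcf7, -1.23 for Nkd1, -1.22 for Nkd2 and 0.55 for Tcf7l2. In OI minus CM Nkd2 alone passed, with -0.86. Znrf3 had no FGF9 change that passed in any single medium, and Tcf7l2 was the only gene with a positive difference among those that passed. In AI minus CM the passes of Tcf7l2 and Tcf7l1 depended on the processing. Over the alternative fits with edgeR, DESeq2 and limma the difference of Tcf7l2 went down to 0.13. The largest adjusted p of these fits was 0.332 for Tcf7l2 and 0.107 for Tcf7l1.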

How the results depend on the processing

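With library totals in place of TMM factors, the median of all genes for FGF9 in AI moved from 0.05 to -0.16 and the share of higher DEGs from 41.7% to 27.8%, so small changes in AI are relative to the scaling. So are small differences of the FGF9 effect that involve AI. Their median moved from -0.004 to -0.27 for AI minus CM and from -0.002 to -0.26 for AI minus OI. The limma fit on log2 of FPKM plus 0.5 called 3 of the genes for FGF9 in OI, 1 each for AI against CM and against OI without FGF9, and 2 for the difference of the FGF9 effect between AI and OI, in place of 5, 3, 2 and 5. Over all genes it called 991 for FGF9 in CM, 1059 in OI and 1435 in AI in place of 1878, 2036 and 2818, and 388 for OI against CM, 2083 for AI against CM and 2080 for AI against OI without FGF9 in place of 966, 3919 and 3859. With FGF9 these were 281, 3604 and 3477 in place of 754, 5776 and 5530, and 185 in place of 287 for the FGF9 effect in OI minus CM. Adding 0.5 shrinks the fold changes of genes at low FPKM by construction.

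The FGF9 change of Tcf7l2 in AI reversed to -0.14 on library totals and to -0.12 and -0.14 with limma (0.5 and 0.1 added), and the OI minus CM difference of Lef1 to -0.038 and -0.043 with the same limma fits. Leaving out single samples, the latter ranged from -0.30 to 0.45, that of Nkd1 from -0.082 to 0.38, Lef1 in OI against CM from -0.52 to 0.23, and Znrf3 from -0.016 to 0.079 in OI against CM and from -0.012 to 0.25 with FGF9 in OI. None of these had passed a threshold, and their cause was not tested. With single samples left out, the number of called genes ranged from 3 to 4 for AI against CM with FGF9 and from 4 to 5 for the FGF9 effect in AI minus CM and in AI minus OI, and stayed at 4, 5 and 3 for FGF9 in CM, OI and AI. Limma with 0.5 added called 3 for FGF9 in CM and 3 in OI. With 0.1 added it called 4 in OI and 4 in AI, and library totals also gave 4 in AI.

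The labels name no link between samples of the same number. Their deviations correlated at 0.00461 to 0.13, and 2 of 9 pairs passed 0.1. Of the control samples, 7 of 9 were most like their own number. Whether same-numbered samples share a batch or an origin was not tested. With the replicate block the counts of called genes were 4, 5 and 3 for FGF9 in CM, OI and AI, and no call among the 9 genes changed. Depth limits Rnf43, Lef1 in CM and OI, and Nkd1 in AI_F9. Of single-gene results under the alternatives, 2355 kept direction and side of the threshold, 18 lost and 2 gained a call and 17 reversed.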
